A study of Mus musculus with 22 samples.

Results

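The genes described here are 10 genes whose messages mark neutrophils: *S100a8*, *S100a9*, *Retnlg*, *Csf3r*, *Ly6g*, *Ngp*, *Camp*, *Mpo*, *Fpr1* and *Il1r2*. They were found by their symbols, and all 10 were among the 55573 genes counted in mouse liver. Of these, 5 had a mean of at least 10 counts per liver and were tested (*S100a8*, *S100a9*, *Retnlg*, *Csf3r* and *Fpr1*), and 5 were below that mean.

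Neutrophils are short-lived granulocytes that leave the blood for inflamed tissue, where they kill microbes with granule proteins and with oxidants from the NADPH oxidase. They are made in the bone marrow, where granule proteins such as *Mpo*, *Camp* and *Ngp* are transcribed in immature stages, while mature blood neutrophils carry mainly messages such as *S100a8*, *S100a9*, *Retnlg*, *Csf3r* and *Il1r2*. In steatohepatitis, the inflamed form of fatty liver, neutrophils enter the liver lobule together with monocytes, and chemokines such as *Cxcl1* and *Cxcl2* guide them.

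The study sequenced mRNA from 22 livers of C57BL/6 mice, 1 library per mouse, to ask how loss of the tumour suppressor *Flcn* in hepatocytes alters the response to a diet that causes steatohepatitis. FLCN KO mice (liver-*Flcn*-/-) were homozygous for a floxed *Flcn* allele and carried Albumin-Cre, whose promoter is active in hepatocytes, so neutrophils of these mice keep *Flcn*. Cre mice had wild-type *Flcn* and the same Albumin-Cre transgene, so every mouse carried the recombinase. From the age of 6 weeks the mice, 3 months old by their labels, ate either a chow with 10 kcal% fat or the MCD diet, which lacks methionine and choline and is rich in sucrose and fat, and MCD feeding lasted 6 weeks. The groups were Cre Chow (6 livers), Cre MCD (5 livers), FLCN KO Chow (5 livers) and FLCN KO MCD (6 livers).

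Libraries held between 15276157 and 19417246 counts in Cre Chow (median 17889283.5), between 18201287 and 21144388 in Cre MCD (median 19092932), between 13751347 and 19645473 in FLCN KO Chow (median 18282455) and between 16616132 and 20706657 in FLCN KO MCD (median 19039129.5). Levels below are CPM, a gene's counts scaled to a common library size, after TMM scaling, which corrects for library composition. Adjusted p values come from the quasi-likelihood test of edgeR, adjusted by the Benjamini-Hochberg method across the 14062 genes that entered it, and exact p values come from two-sided exact permutation tests of log2 CPM between the livers of 2 groups, whose smallest possible value is 0.00216. The whole liver was sequenced, so fewer neutrophils and less RNA per neutrophil cannot be told apart.

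The floxed gene, *Flcn*, was only partly lower in the counts of FLCN KO livers. *Flcn* lay at 26.1 to 40.1 CPM in Cre Chow (median 31.7) and at 24.2, 19.9, 16.7, 19.4 and 21.7 CPM in FLCN KO Chow, a log2 fold change of -0.63 (edgeR adjusted p = 0.0249). On MCD it was 31.7, 18.2, 39.8, 32.4 and 23.6 CPM in Cre livers and 17.6 to 32.6 CPM (median 26.6) in FLCN KO livers, and the groups overlapped, with a log2 fold change of -0.16 (edgeR adjusted p = 0.567). In the study's scheme, Albumin-Cre removes an exon of *Flcn*, and a transcript without that exon can still be counted. The counts cover the whole gene and cells other than hepatocytes, so they are a weak check of the genotype labels. On MCD they do not separate the genotypes. Hepatic FLCN protein was examined in the study by western blot, in mice on chow.

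Several libraries stood apart. By *Xist* and Y-linked messages, 3 of 6 Cre Chow, 3 of 5 Cre MCD, 3 of 5 FLCN KO Chow and 3 of 6 FLCN KO MCD livers read as female and the others as male. The 5 libraries with a uniquely mapped share under 75% were the 5 chow livers that read as male (Cre Chow 1, 5 and 6, FLCN KO Chow 1 and 3), so on chow the mapped share and sex cannot be told apart. The library Cre MCD 1 read as female but held 17.9% of the male level of Y-linked messages, and FLCN KO Chow 2 held 13.8%. Cre MCD 3 held skeletal muscle RNA, with a summed level of 3147 CPM over 10 muscle genes. Cre Chow 5 held 40.4 CPM of *Ltf* and 23.9 CPM of *Cxcl5*, against at most 1.64 and 0.824 CPM in every other liver. Results for the neutrophil genes and the lists by role that rest on these libraries are given with and without them. Markers of other cells were counted again without Cre MCD 3 only.

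*S100a8* and *S100a9* encode the subunits of calprotectin, a calcium- and metal-binding protein that fills the neutrophil cytosol, and they lie near each other on opposite strands of chromosome 3, *S100a8* at chr3:90668978-90670035 (+ strand) and *S100a9* at chr3:90692632-90695721 (− strand), in GRCm38. *Retnlg*, at chr16:48872621-48874496 (+ strand), encodes a resistin-like secreted protein of myeloid cells. Because these 3 genes showed the largest diet responses in Cre mice among the 5 tested, the bases just before their annotated starts are printed here, 157 bases for *S100a8* and 250 for each of the others, from RefSeq promoters on GRCm38.p6, 5′ to 3′ on the gene's strand. The windows are chr3:90668821-90668977 (+ strand), chr3:90695722-90695971 (− strand) and chr16:48872358-48872607 (+ strand). Capitals mark matches on either strand to TTGCNNAA, the core letters of a C/EBP site, or to GAGGAA, the core letters of a PU.1 site. C/EBP factors and PU.1 are transcription factors of granulocyte differentiation, and the 2 motifs do not overlap each other in these windows.
S100a8: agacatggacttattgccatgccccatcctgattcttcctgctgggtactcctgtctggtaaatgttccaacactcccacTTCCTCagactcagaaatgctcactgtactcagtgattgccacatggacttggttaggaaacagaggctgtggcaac
S100a9: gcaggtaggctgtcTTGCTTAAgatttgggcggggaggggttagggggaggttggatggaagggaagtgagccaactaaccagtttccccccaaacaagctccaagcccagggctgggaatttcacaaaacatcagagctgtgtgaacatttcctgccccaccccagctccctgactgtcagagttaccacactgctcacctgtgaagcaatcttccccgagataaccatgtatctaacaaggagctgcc
Retnlg: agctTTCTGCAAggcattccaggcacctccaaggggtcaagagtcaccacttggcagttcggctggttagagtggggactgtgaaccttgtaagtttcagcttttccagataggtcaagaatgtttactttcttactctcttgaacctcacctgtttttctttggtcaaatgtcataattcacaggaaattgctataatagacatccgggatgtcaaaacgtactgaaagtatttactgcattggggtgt
The *S100a8* stretch held 1 GAGGAA match, the *S100a9* and *Retnlg* stretches each held 1 TTGCNNAA match, and a match is a description of letters and not of a bound site. Over the 250 bases before the RefSeq start, 4 of the 10 genes held TTGCNNAA (*S100a9*, *Ngp*, *Ly6g* and *Retnlg*) and 4 held GAGGAA (*S100a8*, *Csf3r*, *Mpo* and *Ly6g*). Among 27025 mouse promoters, 9.55% held TTGCNNAA and 23.1% held GAGGAA in a window of this length.

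In Cre mice the MCD diet raised *S100a8* by 7.31-fold, *S100a9* by 7.59-fold, *Retnlg* by 7.77-fold and *Csf3r*, the receptor for the granulocyte growth factor G-CSF, by 2.27-fold. It lowered *Fpr1*, a receptor for formylated bacterial peptides, by 2.05-fold. In FLCN KO mice the same diet raised *S100a8* by 3.33-fold, *S100a9* by 4.15-fold and *Retnlg* by 2.49-fold and lowered *Fpr1* by 1.87-fold, and *Csf3r* was not called. The genotypes differed on MCD in *Csf3r* alone among the 5 tested genes, and on chow in none of them. In Cre mice, 4 of the 5 tested genes rose and 1 fell, where 29.3% of all tested genes rose and 28.2% fell. Their median log2 fold change was 2.87, against 0.01 over all tested genes. These counts include *Retnlg*, which was tested only because its MCD livers were high, and without it 3 of 4 rose, with a median of 2.03. The plot of CPM by liver shows the 6 best-covered genes.

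**Figure D1:**
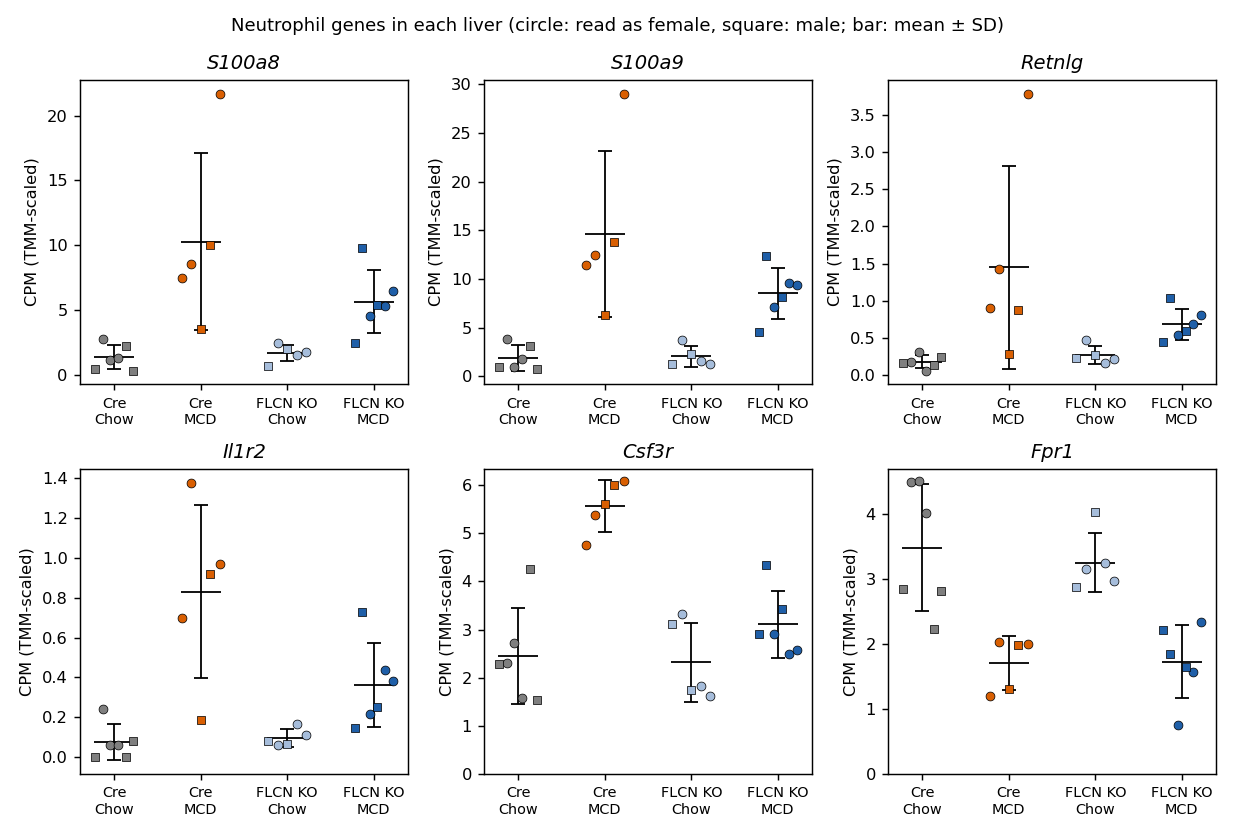
Level of 6 neutrophil genes in each of 22 livers, by group, in TMM-scaled CPM on linear axes (circles, livers read as female; squares, livers read as male; bars, mean ± SD of the group). For S100a8 and S100a9 every MCD liver sits above every chow liver of its genotype, Csf3r is high only in Cre MCD (4.77 to 6.09 CPM), and Fpr1 is lower in every MCD liver than in every chow liver of its genotype.

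*S100a8* lay at 0.321 to 2.73 CPM in Cre Chow (median 1.22) and at 7.44, 8.56, 3.56, 9.98 and 21.7 CPM in Cre MCD. The Cre groups did not overlap, and the liver with 21.7 CPM, Cre MCD 5, was far above the next, at 9.98 CPM. On average this was 1.37 ± 0.953 CPM on chow (SD, n = 6) against 10.2 ± 6.83 CPM on MCD (SD, n = 5). MCD thus gave a log2 fold change of 2.87 (SE 0.466, 95% interval 1.90 to 3.84, edgeR adjusted p = 2.31e-05, exact p = 0.00216). In FLCN KO Chow the livers held 0.699, 2.43, 1.95, 1.54 and 1.78 CPM (mean 1.68 ± 0.638, n = 5), and in FLCN KO MCD 2.46 to 9.80 CPM with a median of 5.31 (mean 5.64 ± 2.43, n = 6). These groups did not overlap either, although the lowest MCD liver, at 2.46 CPM, was next to the highest chow liver, at 2.43 CPM. The log2 fold change was 1.73 (SE 0.469, edgeR adjusted p = 0.00458, exact p = 0.00433). It did not pass in livers read as male alone (edgeR adjusted p = 0.102).

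*S100a9* followed the same order of groups. Its livers held 0.722 to 3.82 CPM in Cre Chow (median 1.37), 11.4, 12.5, 6.27, 13.9 and 29.1 CPM in Cre MCD, 1.32, 3.74, 2.35, 1.60 and 1.24 CPM in FLCN KO Chow and 4.53 to 12.4 CPM in FLCN KO MCD (median 8.77). Within each genotype every MCD liver was above every chow liver, and the highest liver was again Cre MCD 5. The MCD response was a log2 fold change of 2.92 in Cre mice (SE 0.419, edgeR adjusted p = 5.13e-06, exact p = 0.00216) and 2.05 in FLCN KO mice (SE 0.428, edgeR adjusted p = 5.18e-04, exact p = 0.00216). Per kilobase of exon, the mean level of *S100a9* was 3.62 in Cre Chow, 28.0 in Cre MCD, 3.92 in FLCN KO Chow and 16.3 in FLCN KO MCD, and that of *S100a8* was 1.97, 14.8, 2.42 and 8.13, all in CPM per kilobase. The ratio of the 2 subunits on that scale was 2.05 ± 0.670, 1.99 ± 0.221, 1.69 ± 0.610 and 2.10 ± 0.292 (SD) in the same order of groups. The ranges of this ratio overlapped among all 4 groups.

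*Retnlg* was counted with 1 to 5 reads per liver in Cre Chow and 3 to 8 in FLCN KO Chow, so its chow levels rest on few reads. Its livers held 0.0608 to 0.308 CPM in Cre Chow (median 0.170) and 0.905, 1.42, 0.281, 0.872 and 3.79 CPM in Cre MCD. Of the 5 Cre MCD livers, 4 were above every Cre Chow liver, and the exception was Cre MCD 3, the library with muscle RNA, with 0.281 CPM. The log2 fold change was 2.96 (SE 0.519, edgeR adjusted p = 5.60e-05, exact p = 0.00433). In livers read as male alone it was 1.685 and did not pass (edgeR adjusted p = 0.0754). Without Cre MCD 5, the liver at 3.79 CPM, it was 2.24 and still called, and without that liver *S100a8* and *S100a9* rose by 2.41 and 2.53. In FLCN KO Chow it was 0.233, 0.475, 0.268, 0.165 and 0.215 CPM and in FLCN KO MCD 0.443 to 1.03 CPM (median 0.637), and 5 of 6 MCD livers were above every chow liver. The log2 fold change of 1.32 (SE 0.518) passed narrowly (edgeR adjusted p = 0.0428, exact p = 0.00433). It no longer passed without FLCN KO Chow 1, 3, 4 or 5 or without FLCN KO MCD 2, 4, 5 or 6, each left out alone (edgeR adjusted p up to 0.0985), nor with limma-voom (adjusted p = 0.0843), without a filter on low counts, without the 5 chow libraries of low mapped share (edgeR adjusted p = 0.149), or in livers read as female or as male alone (edgeR adjusted p = 0.143 and 0.152). The gene reached the mean of 10 counts only through its MCD livers, so its being tested already required a difference.

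*Il1r2*, a decoy receptor that binds interleukin-1 without signalling, showed the same kind of pattern at lower counts. Its mean count was 6.95, under the limit for a test. It had 0, 4, 1, 1, 0 and 1 reads in Cre Chow, 17, 32, 4, 19 and 19 in Cre MCD, 1, 1, 1, 3 and 2 in FLCN KO Chow and 3, 17, 4, 6, 9 and 8 in FLCN KO MCD. Within each genotype the diet groups shared their end values, 4 reads in Cre mice and 3 in FLCN KO mice, and in CPM they overlapped by 1 liver, Cre Chow 2 at 0.243 above Cre MCD 3 at 0.187 and FLCN KO Chow 4 at 0.165 above FLCN KO MCD 1 at 0.148. Mean levels were 0.0742 ± 0.0891, 0.831 ± 0.435, 0.0954 ± 0.0431 and 0.361 ± 0.210 CPM (SD). When all 32124 genes with a read were tested, its log2 fold change on MCD was 3.33 in Cre mice (edgeR adjusted p = 5.42e-05). In FLCN KO mice every chow liver was at or under the floor of 3 counts, and the MCD mean was at least 1.92-fold higher than that floor (edgeR adjusted p = 0.0332 without a filter). Between genotypes on MCD the log2 difference in that fit was -1.17 (edgeR adjusted p = 0.139).

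*Csf3r*, at chr4:126024550-126044440 (+ strand), is needed for neutrophil production and release from the marrow, and it was the member that separated the genotypes. It lay at 1.52 to 4.26 CPM in Cre Chow (median 2.30), at 4.77, 5.38, 5.62, 6.01 and 6.09 CPM in Cre MCD, at 3.11, 3.32, 1.74, 1.82 and 1.61 CPM in FLCN KO Chow and at 2.49 to 4.34 CPM in FLCN KO MCD (median 2.91). Every Cre MCD liver was above every liver of the other 3 groups, which overlapped each other. In Cre mice it rose on MCD by 1.18 on the log2 scale (SE 0.238, edgeR adjusted p = 2.36e-04, exact p = 0.00433). In FLCN KO mice the log2 difference was 0.43, with a 95% interval of -0.08 to 0.93 (edgeR adjusted p = 0.159, exact p = 0.0952).

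*Fpr1* moved the other way from the other tested members. It lay at 2.23 to 4.50 CPM in Cre Chow (median 3.43), at 1.19, 2.02, 1.31, 1.99 and 2.00 CPM in Cre MCD, at 2.88, 3.14, 4.02, 3.25 and 2.96 CPM in FLCN KO Chow and at 0.756 to 2.33 CPM in FLCN KO MCD (median 1.75). Within each genotype all MCD livers were below all chow livers. The log2 fold change was -1.04 in Cre mice (SE 0.244, edgeR adjusted p = 0.00107, exact p = 0.00433) and -0.91 in FLCN KO mice (SE 0.240, edgeR adjusted p = 0.00390, exact p = 0.00433). Within Cre Chow, the livers read as female held 4.01 to 4.50 CPM and those read as male 2.23 to 2.84 CPM. Those male livers were also the Cre Chow libraries of low mapped share. The other groups did not share this split. Means of female and male livers were 3.12 and 3.45 CPM in FLCN KO Chow, 1.74 and 1.65 in Cre MCD, and 1.55 and 1.90 in FLCN KO MCD. Among livers read as male alone the fall did not pass in either genotype (log2 fold change -0.65, edgeR adjusted p = 0.135 in Cre mice, and -0.88, edgeR adjusted p = 0.0593 in FLCN KO mice).

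In FLCN KO mice, 3 of the 5 tested genes rose on MCD and 1 fell, where 22.5% of all tested genes rose and 22.5% fell. Without *Retnlg*, 2 of 4 rose, with a median of 1.08. The median log2 fold change of the 5 was 1.32, the value of *Retnlg* itself, against 0.00 over all tested genes. The 2 diet comparisons share no livers with each other, but each shares a group with every comparison of genotypes below. The plot of fold changes shows all 5 comparisons side by side.

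**Figure D2:**
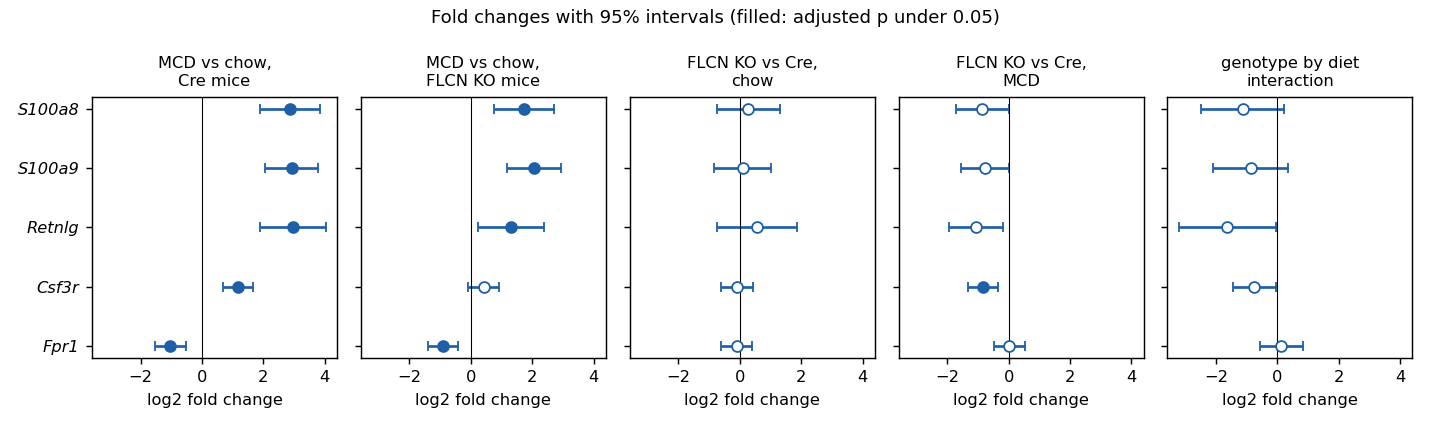
Log2 fold change of the 5 tested neutrophil genes in 5 comparisons (points, edgeR estimates; lines, 95% intervals; filled points, adjusted p under 0.05). S100a8, S100a9 and Retnlg rise on MCD in both genotypes, and Fpr1 falls in both. The Retnlg call in FLCN KO mice held in 14 of 22 fits that left out 1 mouse. Retnlg was tested only because its MCD livers were high. Csf3r is the single filled point between genotypes, at -0.84 on MCD.

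On chow, 0 of the 5 genes differed between FLCN KO and Cre livers, where 5.52% of all tested genes were higher and 3.1% lower in FLCN KO. None had an unadjusted p under 0.05, and limma-voom and DESeq2 also called 0. The log2 differences of FLCN KO from Cre were 0.28 for *S100a8* (95% interval -0.75 to 1.31), 0.10 for *S100a9* (-0.83 to 1.03), 0.57 for *Retnlg* (-0.73 to 1.87), -0.08 for *Csf3r* (-0.60 to 0.43) and -0.10 for *Fpr1* (-0.60 to 0.39). These intervals leave room for differences of more than 2-fold in *S100a8*, *S100a9* and *Retnlg*. The median over the 5 genes was 0.10, against -0.03 over all tested genes.

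On MCD, *Csf3r* was lower in FLCN KO than in Cre livers, and 1 of the 5 genes was thus called, where 8.06% of all tested genes were higher and 8.53% lower in FLCN KO. Its means were 3.11 ± 0.688 (SD, n = 6) and 5.57 ± 0.534 CPM (SD, n = 5), and all 6 FLCN KO livers were below all 5 Cre livers. The log2 difference was -0.84 (SE 0.232, 95% interval -1.32 to -0.36, edgeR adjusted p = 0.0152, exact p = 0.00433). *Csf3r* passed in all 22 fits that left out 1 mouse (edgeR adjusted p 0.00683 to 0.0388), in livers read as female alone (-1.02, edgeR adjusted p = 0.0190) and not in livers read as male alone (-0.72, edgeR adjusted p = 0.333), of which there were 2 Cre and 3 FLCN KO livers.

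The other rising members had lower means in FLCN KO MCD than in Cre MCD, but their groups overlapped and they did not pass. *S100a8* differed by -0.86 on the log2 scale (95% interval -1.73 to 0.02, edgeR adjusted p = 0.177, exact p = 0.165), *S100a9* by -0.78 (-1.56 to 0.01, edgeR adjusted p = 0.174, exact p = 0.121) and *Retnlg* by -1.07 (-1.95 to -0.19, edgeR adjusted p = 0.0907, exact p = 0.279). A single liver set much of the size of these differences: without Cre MCD 5 they were -0.38, -0.37 and -0.34 (edgeR adjusted p = 0.576, 0.549 and 0.557), while that of *Csf3r* was -0.81 (edgeR adjusted p = 0.0302). Without Cre MCD 3, the library with muscle RNA, they were -1.07, -0.97 and -1.33, and *Retnlg* then passed (edgeR adjusted p = 0.0692, 0.0745 and 0.0161). In livers read as female alone *S100a8* also passed (-1.21, edgeR adjusted p = 0.0474). *Fpr1* differed by 0.03 (95% interval -0.48 to 0.53, edgeR adjusted p = 0.961). The median over the 5 genes was -0.84, against -0.01 over all tested genes.

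The interaction of genotype and diet, which asks whether the MCD response differed between genotypes, was called for 0 of the 5 genes, where 3.29% of all tested genes had a higher and 5.54% a lower response in FLCN KO. At an unadjusted p under 0.05 it held for 2 of them, *Retnlg* (-1.64, 95% interval -3.22 to -0.06, edgeR adjusted p = 0.186) and *Csf3r* (-0.76, 95% interval -1.46 to -0.05, edgeR adjusted p = 0.170), and limma-voom and DESeq2 also called 0. For *S100a8* it was -1.13 (95% interval -2.48 to 0.21, edgeR adjusted p = 0.300), for *S100a9* -0.87 (-2.09 to 0.34, edgeR adjusted p = 0.387) and for *Fpr1* 0.13 (-0.58 to 0.84, edgeR adjusted p = 0.858). A smaller rise in FLCN KO mice thus did not pass for any member, and the intervals of the 4 rising members all reach a response more than 2-fold smaller, while those of *S100a8* and *S100a9* also include a larger response in FLCN KO mice. The median over the 5 genes was -0.87, against 0.03 over all tested genes.

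The granule genes *Ngp*, *Mpo* and *Camp* and the surface marker *Ly6g*, which define immature and mature neutrophils in the mouse, were close to the limit of detection. *Ly6g*, at chr15:75155240-75159126 (+ strand), had 9 reads in all 22 livers together, at most 4 in 1 liver (Cre MCD 2), and 0 in 17 livers. *Camp*, which encodes the antimicrobial peptide cathelicidin, had 15 reads, at most 4 in 1 liver, and 0 in 13 livers. *Mpo*, which encodes myeloperoxidase and shares exonic bases with the antisense gene *Gm11505*, had 24 reads, at most 6 in 1 liver, and 0 in 11 livers. A count of 0 allows up to 3 counts, which is on average 0.205 CPM in Cre Chow and 0.188 CPM in FLCN KO Chow, so small differences in these genes were not detectable at this depth. Without a filter none of these 4 genes was called in any comparison.

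*Ngp*, which encodes a cathelicidin-like protein of neutrophil granules, had 62 reads. They were spread as 0, 2, 1, 2, 0 and 0 in Cre Chow, 2, 4, 0, 1 and 4 in Cre MCD, 0, 6, 9, 8 and 3 in FLCN KO Chow and 0, 6, 2, 1, 9 and 2 in FLCN KO MCD. The highest livers were thus FLCN KO livers on either diet, and this order of groups was not that of *S100a8*. Without a filter the log2 difference between genotypes on chow was 2.41 (unadjusted p = 0.00905, edgeR adjusted p = 0.162). The plot of reads per liver shows that most of these values lie at or under 3 counts.

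**Figure D3:**
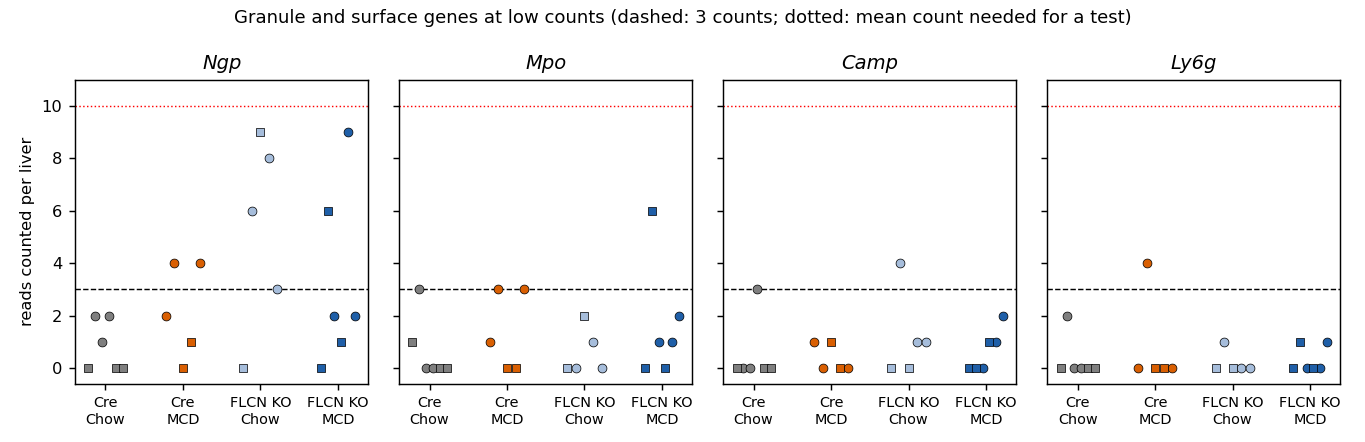
Reads counted per liver for the 4 neutrophil genes at the lowest counts, by group (circles, livers read as female; squares, male; dashed line, 3 counts; dotted line, the mean of 10 counts needed for a test). No liver reaches 10 reads for any of the 4 genes, and Ngp has its highest counts, 6 to 9, in FLCN KO livers.

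The genes that neutrophils use once they are recruited were taken as lists by role. Many of them are also expressed by monocytes, macrophages, endothelium or hepatocytes, so they are not particular to neutrophils. The shares of all tested genes called in each comparison, given above, are the background for these counts too. *Chil3*, *Clec4d*, *Clec4e*, *Cxcl2*, *Cxcr2* and *Tnf* had mean counts under 10 in both chow groups and reached the limit for a test only through their MCD livers, and *Ltf* and *Cxcl5* only through Cre Chow 5. Their being tested thus already required a difference, and counts that include them are descriptions. The plot of the diet response by role shows every tested gene of the 6 lists.

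**Figure D4:**
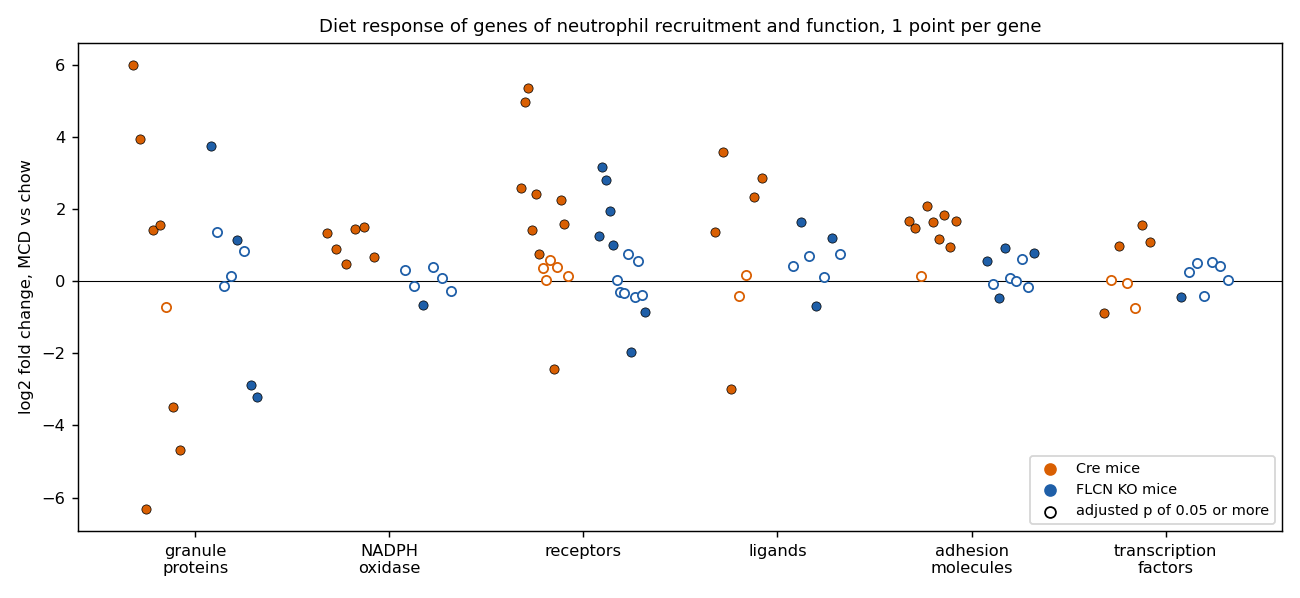
Log2 fold change of MCD against chow for each tested gene of 6 role lists, in Cre mice (orange) and FLCN KO mice (blue), with open circles for an adjusted p of 0.05 or more. All 6 NADPH oxidase subunits lie above 0 and are called in Cre mice and none of them is called higher in FLCN KO mice, while granule genes spread from -6.32 to 5.99 in Cre mice.

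Among 12 ligands that recruit or activate neutrophils, 7 were tested, and in Cre mice 4 rose on MCD and 1 fell, with a median log2 fold change of 1.36. *Cxcl2*, a chemokine that binds the neutrophil receptor CXCR2, lay at 0 to 0.405 CPM in Cre Chow and at 2.01, 0.602, 1.26, 2.23 and 2.92 CPM in Cre MCD, without overlap, and rose by 3.56 on the log2 scale (edgeR adjusted p = 1.68e-05). *Tnf*, an inflammatory cytokine, rose by 2.85 (edgeR adjusted p = 7.49e-05). In FLCN KO mice *Cxcl2* rose by 1.63 (edgeR adjusted p = 0.0206), *Il1rn*, the interleukin-1 receptor antagonist, rose by 1.19 (edgeR adjusted p = 3.13e-05) and *Il1a* fell by 0.69 (edgeR adjusted p = 0.0356). *Il1rn* was also called higher in Cre mice. The call of *Cxcl2* in FLCN KO mice was lost without FLCN KO MCD 4 (log2 fold change 1.28), and that of *Il1a* without any 1 of 7 FLCN KO livers. Both were also lost without the 5 chow libraries of low mapped share (edgeR adjusted p = 0.106 and 0.101), and *Cxcl2* with limma-voom.

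*Cxcl1*, another CXCR2 ligand, separated the genotypes on MCD. It lay at 24.5, 25.0, 22.0, 12.98 and 22.5 CPM in Cre MCD and at 3.97 to 9.85 CPM in FLCN KO MCD, and the groups did not overlap (log2 difference -1.67, edgeR adjusted p = 0.0106). *Il1rn* was also lower in FLCN KO MCD (-0.72, edgeR adjusted p = 0.00705), and its MCD response differed between genotypes (interaction -1.14, edgeR adjusted p = 0.0109). These were the 2 ligands called between genotypes on MCD, and 4 were called without Cre MCD 2. *Cxcl5*, a chemokine of epithelial cells, was called lower on MCD in Cre mice (-2.99, edgeR adjusted p = 0.0318) and lower in FLCN KO on chow (-5.70, edgeR adjusted p = 0.0243), and both calls rested on Cre Chow 5. Without that liver the values were 1.12 (edgeR adjusted p = 0.205) and -1.59 (edgeR adjusted p = 0.399), and the call on chow was also lost without FLCN KO Chow 3, 4 or 5. The call in Cre mice held in 17 of 22 fits that left out 1 mouse. With limma-voom, with only the groups compared, with a replicate block, without the 5 chow libraries of low mapped share, with sex as a covariate and in either sex alone, neither *Cxcl5* call held. The growth factors *Csf3* and *Csf2* and the cytokines *Cxcl3*, *Il6* and *Il17a* had too few reads for a test, and *Il17a* had none in any liver.

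Of 18 chemoattractant and activating receptors, 14 were tested. In Cre mice 8 rose on MCD and 1 fell (median log2 fold change 1.08), and in FLCN KO mice 5 rose and 2 fell (median 0.29). *Cxcr2*, the main chemokine receptor of mature neutrophils, rose in both genotypes, by 1.41 in Cre mice (edgeR adjusted p = 0.0355) and by 1.94 in FLCN KO mice (edgeR adjusted p = 0.0151). The C-type lectins *Clec4e* and *Clec4d*, which sense microbial and damaged-cell products, showed the largest changes. *Clec4d* lay at 0 to 0.304 CPM in Cre Chow, 6.41, 3.06, 6.32, 7.61 and 5.01 CPM in Cre MCD, 0.233, 0.119, 0.134, 0.165 and 0.269 CPM in FLCN KO Chow and 0.810 to 3.31 CPM in FLCN KO MCD, a rise of 4.95 in Cre mice (edgeR adjusted p = 3.54e-09) and 3.17 in FLCN KO mice (edgeR adjusted p = 6.11e-06). *Clec4e* had at most 3 reads per liver in Cre Chow and was at least 19.1-fold higher in Cre MCD. *C5ar1*, the receptor of the complement fragment C5a, rose by 2.59 in Cre mice (edgeR adjusted p = 6.16e-07). *Il1rap*, the accessory chain of interleukin-1 receptors, fell in both genotypes, by 1.96 in FLCN KO mice (edgeR adjusted p = 9.70e-07).

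On MCD 7 of the 14 receptors were lower in FLCN KO than in Cre livers and 0 higher, and 4 were lower without Cre MCD 4. *Clec4e* differed by -1.75 (edgeR adjusted p = 0.00424), *Clec4d* by -1.73 (edgeR adjusted p = 8.06e-04) and *C5ar1* by -1.32 (edgeR adjusted p = 0.00319). The Cre and FLCN KO values of *C5ar1* on MCD, 4.14 to 6.93 and 1.19 to 2.92 CPM, did not overlap. The MCD response differed between genotypes for *Tlr2*, a receptor of bacterial lipoproteins (interaction -1.96, edgeR adjusted p = 0.00309), and *Ptafr*, the receptor of platelet-activating factor (-1.68, edgeR adjusted p = 0.0108), a count of 2 that was 4 without Cre MCD 2 or FLCN KO Chow 1. On chow *Tlr2* was already higher in FLCN KO livers by 1.27 (edgeR adjusted p = 0.00382), a call that was lost without the 5 chow libraries of low mapped share (edgeR adjusted p = 0.0831) and in either sex alone. *Trem1*, an activating receptor of neutrophils and monocytes, was under the limit for a test. It had 0 reads in all 6 Cre Chow livers and 6 to 20 reads in Cre MCD (median 17). Against the floor of 3 counts, its mean level was at least 3.28-fold higher in Cre MCD. In FLCN KO mice it had at most 1 read per chow liver. There it was over 3 reads in 3 of 6 MCD livers, with a mean at least 1.44-fold higher than the floor. *Cxcr1*, *Fpr3* and *Trem3* were also not tested, and *Fpr3* had no reads in any liver.

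All 6 NADPH oxidase subunits were tested, and all 6 rose in Cre mice on MCD (median log2 fold change 1.11), among them *Ncf4* (1.51, edgeR adjusted p = 3.87e-05) and *Cyba* (1.33, edgeR adjusted p = 3.28e-06). In FLCN KO mice 0 rose and *Ncf1*, a cytosolic organizer of the complex, fell by 0.65 (edgeR adjusted p = 0.0102). On MCD all 6 were lower in FLCN KO livers. *Ncf4*, a cytosolic subunit, differed by -0.95 (edgeR adjusted p = 0.0101) and *Ncf1* by -0.82 (edgeR adjusted p = 0.00623). The interaction was called for all 6, with *Ncf4* at -1.42 (edgeR adjusted p = 0.0187) and *Ncf1* at -1.13 (edgeR adjusted p = 0.0156). The count of 6 for the interaction fell to 3 without Cre MCD 1, to 3 in livers read as female and to 1 in livers read as male. It fell to 0 without the 5 chow libraries of low mapped share and to 0 with a replicate block. The count of 6 that rose in Cre mice fell to 4 without those 5 libraries and to 3 in livers read as female.

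Granule proteins and other antimicrobial products did not move as one group. Of 16 genes 8 were tested, and in Cre mice 4 rose and 3 fell on MCD, while in FLCN KO mice 2 rose and 2 fell, with medians of 0.35 and 0.49. *Chil3*, a chitinase-like protein of neutrophils and alternatively activated macrophages, was at or under 3 reads in all Cre Chow livers and at 5.92, 8.35, 1.36, 3.88 and 7.57 CPM in Cre MCD, at least 26.4-fold higher, and it rose by 3.74 on the log2 scale in FLCN KO mice (edgeR adjusted p = 5.26e-05). On MCD it was lower in FLCN KO livers by 2.11 (log2 difference -2.11, edgeR adjusted p = 0.00105). *Lcn2*, an iron-siderophore-binding protein made by neutrophils and by inflamed hepatocytes, lay at 571, 841, 289, 531 and 561 CPM in Cre MCD and at 49.1 to 148 CPM in FLCN KO MCD, without overlap (log2 difference -2.64, edgeR adjusted p = 0.00512). *Lyz2*, the lysozyme of myeloid cells, differed on MCD by -0.86 (edgeR adjusted p = 0.0127) and in its response by -1.26 (edgeR adjusted p = 0.0205). The first call was lost, narrowly, when only the groups compared were fitted (edgeR adjusted p = 0.05004), and the second without the 5 chow libraries of low mapped share (edgeR adjusted p = 0.165) or the 2 livers of mixed sex signal.

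Among the falling genes of this list, *Wfdc21*, which encodes a small protein with a whey acidic protein domain, was abundant on chow. It had 436 to 528 CPM in Cre Chow and 20.6, 4.73, 30.5, 16.8 and 22.2 CPM in Cre MCD, and fell by 4.67 on the log2 scale in Cre mice (edgeR adjusted p = 5.98e-08) and by 3.21 in FLCN KO mice (edgeR adjusted p = 3.06e-06). *Serpinb1a*, an inhibitor of neutrophil serine proteases, was called lower on MCD in both genotypes, and fell by 2.88 in FLCN KO mice (edgeR adjusted p = 4.68e-04). *Ltf*, the granule protein lactoferrin, was called lower on MCD in Cre mice (-6.32, edgeR adjusted p = 0.00132) and lower in FLCN KO on chow (-5.80, edgeR adjusted p = 0.0182), and its reads lay mainly in Cre Chow 5. Without that liver the values were -2.48 (edgeR adjusted p = 0.0326) and -1.96 (edgeR adjusted p = 0.243), and the call on chow was also lost without FLCN KO Chow 4. With limma-voom neither call held (adjusted p = 0.114 and 0.352), and the call on chow was also lost when only the groups compared were fitted, with a replicate block, without the 5 chow libraries of low mapped share, with sex as a covariate and in either sex alone. The protease genes *Elane*, *Prtn3* and *Ctsg* of immature neutrophils, together with *Ms4a3*, *Padi4* and *Itln1*, had too few reads for a test. *Mmp8* and *Cd177*, products of neutrophil granules and membranes, were likewise not tested, but each was over 3 reads in all 5 Cre MCD livers and at most 2 in Cre Chow, a mean level at least 3.54-fold and 2.99-fold higher against the floor.

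Adhesion molecules of neutrophils and of the endothelium rose in Cre mice, where 8 of 9 tested genes rose on MCD and 0 fell (median log2 fold change 1.63), while in FLCN KO mice 3 rose and 1 fell (median 0.10), 4 calls that were 2 without FLCN KO MCD 4. *Itgam*, the integrin chain CD11b of neutrophils and other myeloid cells, lay at 0.432 to 0.946 CPM in Cre Chow and at 3.21, 1.55, 3.79, 3.20 and 3.43 CPM in Cre MCD, without overlap (log2 fold change 2.07, edgeR adjusted p = 7.10e-06). It rose by 0.91 in FLCN KO mice (edgeR adjusted p = 0.0236). That call was lost without FLCN KO Chow 4 or FLCN KO MCD 4 (0.69 and 0.76). *Itgam* shares 3450 of its 5024 exonic bases with *Gm49368* on the same strand, where reads may not have been counted for it. *Selp*, the endothelial and platelet selectin on which neutrophils roll, rose by 1.84 in Cre mice (edgeR adjusted p = 5.79e-05) and was lower in FLCN KO than in Cre livers on MCD, 0.648 to 1.35 CPM against 3.45, 2.15, 3.42, 3.63 and 3.22 CPM (log2 difference -1.66, edgeR adjusted p = 9.61e-04). *Icam1*, the endothelial ligand of neutrophil integrins, rose by 1.68 in Cre mice (edgeR adjusted p = 1.67e-08) and by 0.55 in FLCN KO mice (edgeR adjusted p = 0.00680), was higher in FLCN KO on chow by 0.65 (edgeR adjusted p = 0.0112), and its response differed between genotypes by -1.13 (edgeR adjusted p = 0.00363). Its calls in FLCN KO mice and on chow were lost without the 5 chow libraries of low mapped share (edgeR adjusted p = 0.0631 and 0.146), and that of its response was not.

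*Vcam1*, an endothelial ligand of the integrin chain encoded by *Itga4*, was called higher on MCD in both genotypes, and rose by 0.77 in FLCN KO mice (edgeR adjusted p = 0.00806). On MCD 5 of the 9 adhesion genes were lower in FLCN KO and 0 higher, among them *Itgam* (-1.16, edgeR adjusted p = 0.00684) and *Itgb2*, the common chain of the leukocyte integrins (-0.96, edgeR adjusted p = 0.00371). The count was 3 without Cre MCD 4, FLCN KO MCD 3 or FLCN KO MCD 6, each left out alone. The interaction was called for 4, led by *Itga4* (-1.56, edgeR adjusted p = 0.0176) and *Itgb2* (-1.54, edgeR adjusted p = 0.00446), and for 2 without the 5 chow libraries of low mapped share, where *Itga4* was not called (edgeR adjusted p = 0.109).

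Among 8 transcription factors of granulocyte differentiation, 7 were tested, and in Cre mice 3 rose on MCD and 1 fell (median 0.04), while in FLCN KO mice 0 rose and 1 fell (median 0.26). *Runx1* rose by 1.55 (edgeR adjusted p = 4.75e-05), *Spi1*, which encodes PU.1, by 1.08 (edgeR adjusted p = 3.57e-05) and *Cebpd* by 0.96 (edgeR adjusted p = 0.00128) in Cre mice. *Cebpa*, which hepatocytes express at high levels, was called lower on MCD in both genotypes, and fell by 0.43 in FLCN KO mice (edgeR adjusted p = 0.00309). On MCD *Cebpd* (-0.99, edgeR adjusted p = 0.00490), *Runx1* (-0.88, edgeR adjusted p = 0.0192) and *Spi1* (-0.87, edgeR adjusted p = 0.00197) were lower in FLCN KO, and *Runx1* was not called without Cre MCD 4. The response of *Spi1* differed between genotypes (-1.06, edgeR adjusted p = 0.0147), but not without the 5 chow libraries of low mapped share (edgeR adjusted p = 0.0983). *Cebpe*, a factor of late granulocyte maturation, was higher in FLCN KO on chow by 0.80 (edgeR adjusted p = 0.0438), a call lost in 12 of 22 fits that left out 1 mouse. *Gfi1* was not tested. Among the genes of the 6 lists named here, *Ncf1*, *Selp* and *Itgb2* still passed between genotypes on MCD in livers read as male alone, and *Itgb2* still passed the interaction there. In livers read as female alone the calls of *Cxcl2*, *Il1a*, *Itgam*, *Vcam1* and *Icam1* in FLCN KO mice, of *Tlr2* and *Icam1* on chow, of *Runx1* on MCD, of *Cxcl5* and *Ltf* on chow, of *Cxcl5* in Cre mice and of *Ncf1* and *Itga4* in the interaction were lost.

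Markers of other cells moved with the same diet and genotype, and their part in the results was not tested. For every marker list, too, the background is the share of all tested genes called in that comparison, given above. The summed level of the 10 neutrophil genes was 9.58 ± 3.17 CPM in Cre Chow, 34.7 ± 17.6 in Cre MCD, 10.1 ± 2.40 in FLCN KO Chow and 20.3 ± 6.11 in FLCN KO MCD (SD). The 8 monocyte markers summed to 19.0, 37.3, 28.7 and 25.2 CPM in that order, with *Plac8* the most abundant. Of these 8, 6 rose on MCD in Cre mice and 1 in FLCN KO mice, 3 were higher in FLCN KO on chow and 2 lower on MCD (1 without Cre MCD 3), and the interaction was lower for 6. The 8 markers of monocyte-derived macrophages, with *Cd63* the most abundant over all livers, summed to 167, 527, 332 and 577 CPM, with 7 higher and 1 lower on MCD in Cre mice and 6 higher and 1 lower in FLCN KO mice. On chow 6 of the 8 were higher in FLCN KO, on MCD *Mmp12*, *Itgax* and *Trem2* were lower and *Cd63* higher in FLCN KO, and the interaction was lower for 6. *Cd63*, a lysosomal membrane gene that other cells also express, alone gave 243 of the 577 CPM in FLCN KO MCD and 86.1 of the 527 CPM in Cre MCD, so the order of these 2 sums rests on it. The plot of summed marker levels shows these differences liver by liver.

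**Figure D5:**
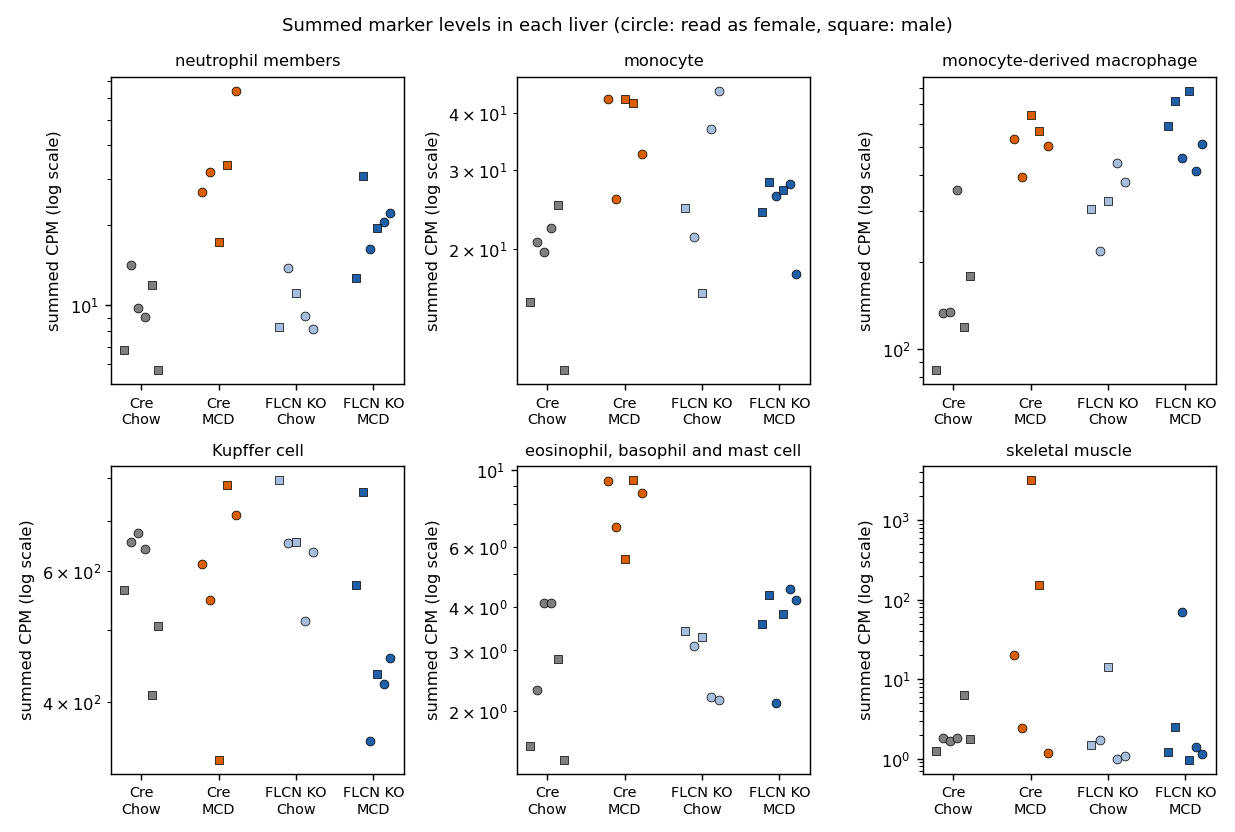
Summed CPM of the 10 neutrophil genes and of 5 marker lists in each liver, on log axes (circles, livers read as female; squares, male). The neutrophil sum averages 34.7 CPM in Cre MCD and 20.3 in FLCN KO MCD, the macrophage sum averages 527 and 577 CPM in the MCD groups, and a single Cre MCD liver holds 3147 CPM of skeletal muscle genes.

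Kupffer cell markers, 9 genes of the resident liver macrophage led by *Cd5l*, summed to 575, 599, 651 and 502 CPM. On MCD 2 were higher and 2 lower in Cre mice, and 0 higher and 3 lower in FLCN KO mice. Of all tested genes, 29.3% were higher and 28.2% lower in Cre mice, and 22.5% and 22.5% in FLCN KO mice. Of the 9 markers of other granulocytes and mast cells, 1 was tested, *Ear2*, which is also made by monocytes and rose by 1.62 in Cre mice. The eosinophil-defining *Epx* had 0 reads in all livers, and the list summed to 2.74, 7.93, 2.83 and 3.77 CPM. T and NK cell markers, led by *Cd3g*, summed to 6.43, 6.80, 10.0 and 5.57 CPM, with 0 of 7 tested genes called in Cre mice and 4 lower in FLCN KO mice. B and plasma cell markers, led by *Jchain*, summed to 12.1, 9.20, 17.3 and 6.29 CPM, with 0 of 6 called in Cre mice and 2 lower in FLCN KO mice (1 lower and 3 lower without Cre MCD 3).

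Blood left in the tissue also carries neutrophils. The 7 erythroid genes summed to 206, 242, 277 and 184 CPM, and the globin gene *Hbb-bs*, the most abundant over all livers, lay at 81.2, 162, 162 and 123 CPM, with 3 of 5 tested genes higher on MCD in Cre mice (2 without Cre MCD 3) and 1 lower in FLCN KO mice. Platelet genes, led by *Itga2b*, summed to 3.81, 5.89, 4.53 and 3.77 CPM, with *Pf4* higher on MCD in both genotypes. *Gp1bb* had 0 reads in all livers. Of its 2087 exonic bases, 1902 overlap another gene on the same strand, so its 0 does not show that the message was absent. *Pf4* was lower in FLCN KO than in Cre livers on MCD, and its interaction was called lower. Hepatocyte markers, led by *Alb*, were lower on MCD for 7 of 8 genes in Cre mice and for 6 of 8 in FLCN KO mice. Genes of dividing cells were higher for 8 of 8 in Cre mice and 0 of 8 in FLCN KO mice. On MCD 1 of the 8 was lower in FLCN KO (3 without Cre MCD 3), and the interaction was lower for 1 (5 without Cre MCD 3). Skeletal muscle genes were higher for 10 of 10 in Cre mice, and for 9 of 10 without Cre MCD 3. They summed to 3147 CPM in Cre MCD 3 and 152 CPM in Cre MCD 4. In Cre MCD 2 and Cre MCD 5 they summed to 2.45 and 1.18 CPM, and in Cre Chow to 2.45 CPM on average. On MCD 10 of 10 were lower in FLCN KO than in Cre livers, and 2 of 10 without Cre MCD 3. These genes reached the limit for a test mainly through livers with muscle RNA, so all these counts are descriptions. Without Cre MCD 3 the log2 fold changes on MCD in Cre mice were 3.08 for *S100a8*, 3.11 for *S100a9*, 3.22 for *Retnlg*, 1.18 for *Csf3r* and -0.96 for *Fpr1*, all still called.

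The members also differed in how they varied among mice of the same group. After subtracting each group's mean from log2 CPM, the deviations of *S100a8* and *S100a9* over 22 livers had a Pearson correlation of 0.913, the highest that either gene had among 14037 genes. The correlation with *Retnlg* was 0.516 for *S100a8* and 0.513 for *S100a9*, that with *Csf3r* was 0.327 and 0.413, and that with *Fpr1* was 0.295 and 0.209. The other genes most like *S100a8* were *Ccdc17* (0.826), *Gm17077* (0.773), *Nubpl* (0.758), *Smim6* (0.758) and *Sdcbp2* (0.747), and those most like *S100a9* were *Id2* (0.759), *Ccdc17*, *Sdcbp2*, *Arhgap23* and *Mmp9*, the gelatinase of neutrophil granules (0.711). For *Fpr1*, named here after its values were seen, they were *Adamdec1* (0.786), *Il18bp* (0.783), the macrophage gene *Adgre1* (0.746), *Enpp6* (0.710) and the macrophage scavenger receptor gene *Msr1* (0.698). The deviations of *Fpr1* and *Csf3r* had a correlation of -0.13. These are descriptions of 22 livers, whose points share library, depth, sex and mapped share, and many gene pairs were compared.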

How the data were processed

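Liver mRNA of 22 mice was measured, 1 library per mouse. The authors deposited a table of raw counts per gene (per the labels and the study's methods: bcl2fastq, Trimmomatic, STAR and HTSeq on GRCm38), whose versions, annotation release and strand setting are not given in the sources used here. Collapsing of molecular identifiers is not stated, so values were treated as read counts. Every column mapped to a sample. Totals were 13751347 to 21144388 counts, and the floor of 3 counts covers counting error only.

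Genes with a mean of at least 10 counts over the 22 libraries were kept (14062). The main test was edgeR 4.0.16 in R 4.3.3, quasi-likelihood with TMM scaling and 1 fit of 4 groups, with Benjamini-Hochberg adjustment over all genes and a threshold of 0.05. The study's methods used limma with the same filter. Adjusted p values and 95% intervals of fold changes measure the spread between mice. Log2 CPM used a prior count of 2. Positions came from GENCODE M21, in which 179 genes had none, and promoters from RefSeq. Scripts were tested on simulated data.

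Alternatives were RLE size factors, DESeq2 1.42.0, limma-voom (limma 3.58.1), no filter, at least 10 counts in at least 5 libraries, fits of only the groups compared, a replicate block, leaving out the 5 chow libraries of low mapped share, and leaving out each mouse. Sex as a covariate, each sex alone and leaving out 2 livers of mixed sex signal were added after seeing the data. Sex was read from the counts (at least 100 CPM of *Xist* for female). Tables were handled with pandas 2.3.3 and numpy 2.4.6.

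The 10 genes and all lists were chosen with earlier results of these data known. Named were all 10, up to 3 called genes of largest change per role list and diet comparison, up to 3 per list called in the interaction or between genotypes, the marker lists, and the 5 genes most correlated with *S100a8* or *S100a9*. Genes named outside the rule (*Cxcr2*, *Mmp8*, *Cd177*, *Trem1* and the genes like *Fpr1*) were chosen after their values were seen. One gene that the rule names is not reported here.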

Additional observations from a re-analysis of the deposited data

Results flagged for a closer look

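Among 68 sets of values for 1 gene or marker list in 1 group, 9 held a liver far from the others of its group, where chance gives about 1 in 20. One concerned a neutrophil gene: *Il1r2* lay at 0.243 CPM in Cre Chow 2, against at most 0.0802 CPM in the other Cre Chow livers. The summed monocyte markers were lowest in FLCN KO MCD 6, at 17.6 CPM with the next at 24.2 CPM. The summed markers of monocyte-derived macrophages were highest in Cre Chow 4, at 353.5 CPM with the next at 178.9 CPM. The B and plasma cell markers were highest in Cre MCD 3, at 22.1 CPM with the next at 6.69 CPM.

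Skeletal muscle genes stood apart in 1 liver of every group: Cre Chow 5 at 6.35 CPM (next 1.82), Cre MCD 3 at 3147 CPM (next 152.5), FLCN KO Chow 3 at 14.3 CPM (next 1.72) and FLCN KO MCD 3 at 69.5 CPM (next 2.54). Markers of dividing cells were highest in FLCN KO MCD 4, at 69.1 CPM with the next at 25.4 CPM.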

How the results depend on the processing

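The tested neutrophil genes called were 5 in the MCD response of Cre mice, 4 in that of FLCN KO mice, 0 between genotypes on chow, 1 on MCD and 0 for the interaction. Leaving out each mouse gave 5 to 5, 3 to 4, 0 to 0, 1 to 2 and 0 to 0. The value of 2 on MCD came without Cre MCD 3 (*Csf3r* and *Retnlg*), and livers read as female alone also gave 2 (*Csf3r* and *S100a8*). Livers read as male alone gave 3 in the MCD response of Cre mice, 1 in that of FLCN KO mice and 0 between genotypes on MCD. Some differences turned sign, and of these only the MCD response of *Cxcl5* in Cre mice was called (-2.99). *S100a9* on chow was -0.011 without the chow libraries of low mapped share, -0.015 in females and -0.24 without the livers of mixed sex signal (-0.24 to 0.43 leaving out 1 mouse). *Csf3r* on chow was 0.030 without the libraries of low mapped share and 0.028 in females (-0.25 to 0.15). *Retnlg* on MCD was 0.26 in males. *Fpr1* was 0.43 on chow in males, -0.15 on MCD in females, -0.079 on MCD without the livers of mixed sex signal (-0.079 to 0.18) and -0.23 for the interaction in males. The MCD response of *Cxcl5* in Cre mice was 0.59 with limma-voom, 0.50 without the libraries of low mapped share and 0.25 in females (-3.25 to 1.12). The causes were not tested.

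The labels' replicate numbers name different mice, and same-numbered livers had a mean correlation of 0.00613 over 31 pairs (-0.551 to 0.470). Between Cre MCD and FLCN KO MCD all 5 pairs were positive (0.0621 to 0.263, mean 0.129), but not every pair was over 0.1, and the numbers were not taken to pair the mice. With a replicate block no call of a neutrophil gene changed (*Csf3r* on MCD -0.77, edgeR adjusted p = 0.0417), while 0 of 6 NADPH oxidase subunits passed the interaction, and over all genes the interaction gave 199 higher and 353 lower in place of 463 and 779.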
